A study of Mus musculus with 8 samples.

Results

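The interleukin-6 family of cytokines acts through a shared receptor chain, gp130, encoded by Il6st. The 10 genes described here are 4 ligands (Il6, Il11, Lif and Osm), 4 receptor chains (Il6st, Il6ra, Il11ra1 and Osmr), the transcription factor Stat3 and its feedback inhibitor Socs3. They were chosen by name, with earlier results of these data known. Where a gene had several probe sets, the one brightest on average across the 8 arrays was used. All 10 were found among 21626 genes with a symbol. The arrays profiled 4 primary gastric adenocarcinomas of transgenic mice, frozen fresh, and 4 samples labelled normal gastric mucosa. The labels name no transgene, promoter, strain, sex or age, do not say whether the normal mucosa came from transgenic animals, and do not say whether the 8 samples are separate animals. The spread behind each p-value is thus that between these samples alone and may in part be technical.

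Interleukin-6 and interleukin-11 bind a receptor chain of their own (Il6ra or Il11ra1) and bring gp130 chains together at the cell surface. Leukaemia inhibitory factor and oncostatin M bring gp130 together with a partner such as Lifr or Osmr. Janus kinases bound to these chains then phosphorylate STAT3, which enters the nucleus and switches on its target genes. Socs3 is one of these targets, and its protein binds gp130 and shuts the signal off. In the mouse stomach this loop is known from animals whose gp130 cannot bind SOCS3, which develop gastric tumours that depend on interleukin-11 and Stat3.

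The promoter regions of Socs3, Il6 and Il11 are shown as examples that hold matches to the motifs named below. No link between these letters and the RNA levels was tested. The sequences are RefSeq's, build GRCm38.p6, 5′ to 3′ on the gene's own strand, and cover the 250 bases before the annotated start. Capitals mark matches on either strand to 4 textbook motifs, namely TTCNNNGAA (STAT), TGANTCA (AP-1), TTGCNNAA (C/EBP) and the NF-kB motif. No matches overlapped.
Socs3, chr11:117969367-117969616, minus strand: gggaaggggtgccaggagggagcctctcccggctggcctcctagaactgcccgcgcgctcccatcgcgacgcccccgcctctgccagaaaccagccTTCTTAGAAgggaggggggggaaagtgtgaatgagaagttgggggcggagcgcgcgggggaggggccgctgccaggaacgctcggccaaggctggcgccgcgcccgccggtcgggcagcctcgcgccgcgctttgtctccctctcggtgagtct
Il6, chr5:30012864-30013113, plus strand: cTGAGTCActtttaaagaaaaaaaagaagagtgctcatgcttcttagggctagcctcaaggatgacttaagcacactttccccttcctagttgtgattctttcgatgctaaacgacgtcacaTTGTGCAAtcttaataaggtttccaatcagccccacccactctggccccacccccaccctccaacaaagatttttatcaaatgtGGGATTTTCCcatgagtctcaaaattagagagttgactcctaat
Il11, chr7:4778142-4778391, minus strand: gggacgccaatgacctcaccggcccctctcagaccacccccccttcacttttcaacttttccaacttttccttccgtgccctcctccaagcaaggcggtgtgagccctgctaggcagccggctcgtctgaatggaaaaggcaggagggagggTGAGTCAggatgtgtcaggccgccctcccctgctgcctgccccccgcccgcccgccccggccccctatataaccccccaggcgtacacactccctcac
In Socs3 the match is TTCTTAGAA, beginning 154 bases before the start. In Il6 an AP-1 match begins 249 bases, a C/EBP match 128 bases and an NF-kB match 44 bases before the start. Of the 2 Il11 starts listed, the one shown has an AP-1 match beginning 98 bases before it and the other has none of the 4 motifs. Lif had an AP-1 match (228 bases before its start), and Il6st, Il6ra, Il11ra1, Osmr and Stat3 had no match to these letters in this window. No promoter of Osm was used. Among 32851 promoters of the same length, 7.02% held the STAT letters, 6.75% AP-1, 1.21% NF-kB and 9.56% C/EBP. A match describes the letters only, and no binding was measured.

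Among the 8 arrays, the median of all genes was 8.2 to 8.45 on the log2 scale, and that of 45 background probe sets was 6.0 to 6.2 (adenocarcinoma) and 6.2 to 6.4 (normal). Single background probe sets ranged from 3.2 to 10.8, so this median is only a rough mark of the lowest measurable signal. Exon control probes exceeded intron control probes, in median, by 3.9 to 4.5 (adenocarcinoma) and 3.6 to 4.0 (normal). Xist, the RNA that silences an X chromosome in female cells, was at 6.40 ± 0.183 in adenocarcinoma and at 12.3 ± 0.483 in normal mucosa (SD, n = 4 each). The groups therefore differ in a sex-linked gene, and sex, like any difference in age or genotype, cannot be told apart from tissue in the changes below. Gastric gland and pit cell genes fell in 9 of 11 cases, and 4 of 6 pan-epithelial genes rose and none fell. Of all genes, 18.2% rose and 23.6% fell.

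The question was whether ligands, receptors and the STAT3 loop had other RNA levels in the tumours than in normal mucosa. In adenocarcinoma Il6, Lif, Osmr, Stat3 and Socs3 rose, Il6ra and Il11ra1 fell, and Il11, Osm and Il6st did not pass the test. A gene was said to rise or fall where limma's adjusted p, over all genes, was under 0.05. By this rule 5 of the 10 genes rose and 2 fell, while of all 21626 genes 18.2% rose and 23.6% fell (41.8% together). The share of calls that rose was 43.6% over all genes, and it became 24.8% with median-centred arrays, 54.8% with cyclic loess and 73.8% with arrays centred on receptor genes. All 4 adenocarcinomas were above all normal samples for 5 of the 10 genes and below them for 2, against 15.8% and 18.5% of all genes (34.3% together). The 10 genes were chosen with earlier results of these data known, so these counts are not independent evidence of a direction. The median log2 difference was 0.95 for the 10 genes and -0.10 for all genes. The median of the 10 genes lies between Osm (0.875) and Il11 (1.025), which did not pass the test, so it is no sign of a shared rise. In whole tissue, fewer cells of a type and less RNA per cell cannot be told apart, so each value is a level in the sample and not in a cell.

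**Figure D1:**
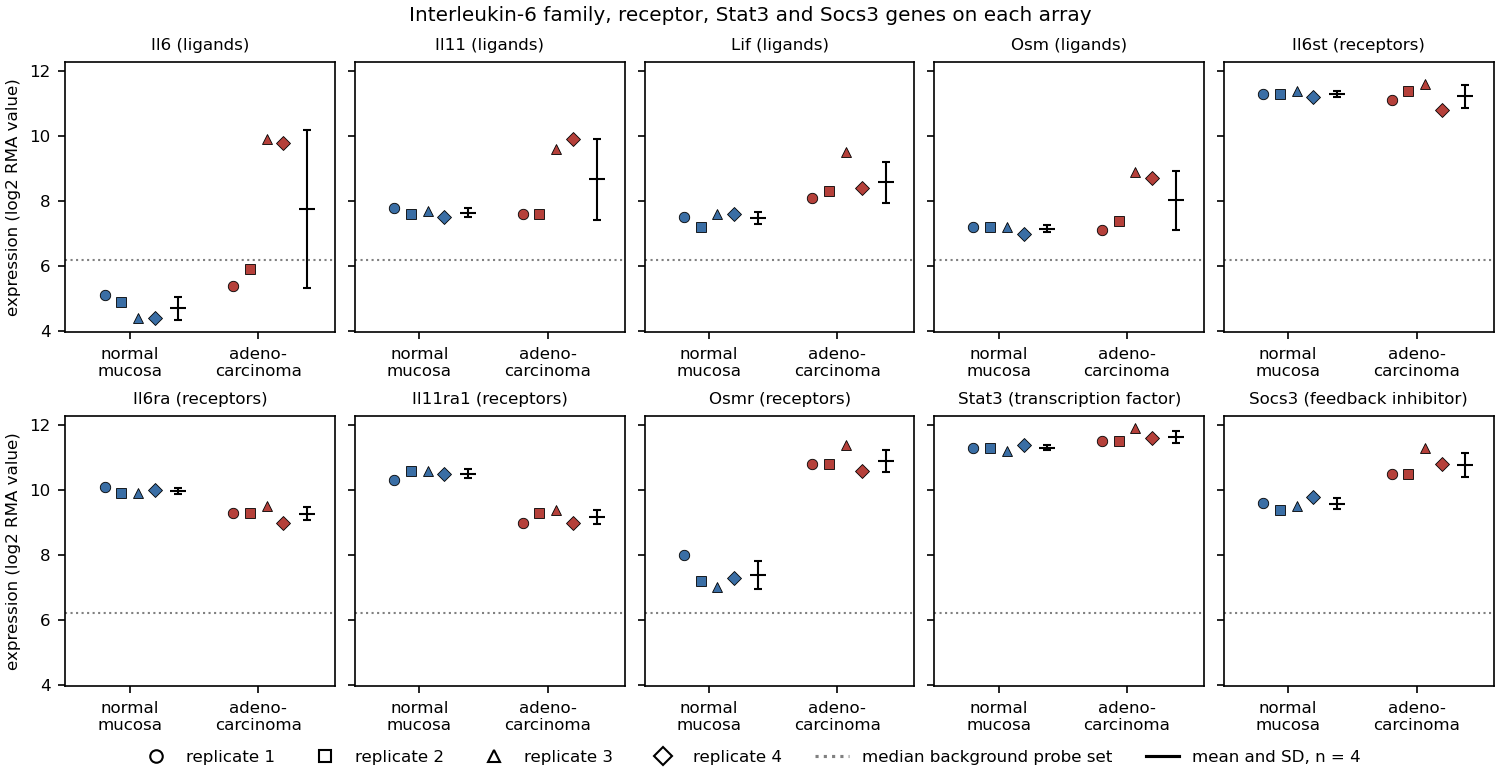
Log2 RMA values of the 10 genes (y axis) on each of 4 normal mucosa (blue) and 4 adenocarcinoma arrays (red), with the replicate shown by the symbol, the mean and SD beside the points, and the median background probe set as a dotted line. Il6, Il11 and Osm stood high in adenocarcinoma replicates 3 and 4, whereas every adenocarcinoma exceeded every normal sample for Osmr, and Il6ra and Il11ra1 were lower.

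Among the ligands, Il6 varied most. Interleukin-6, a cytokine of inflammation and the acute phase, had log2 values of 5.4, 5.9, 9.9 and 9.8 in adenocarcinoma replicates 1 to 4 and of 5.1, 4.9, 4.4 and 4.4 in the normal samples. Replicates 3 and 4 were high, and replicates 1 and 2 lay only a little above the normal samples, though the groups did not overlap. All 4 normal samples and adenocarcinoma replicates 1 and 2 were at or below the median background probe set of their array. The measured difference was 3.05 ± 1.0 (SE; 95% interval 0.79 to 5.31, limma adjusted p = 0.0372). Because normal mucosa was at background, the group means bound the change at least 2.78-fold higher, taking the higher of the background median and the gene's own value on each normal array. The bound rested on replicates 3 and 4, being 1.69-fold without replicate 3 and 1.73-fold without replicate 4, and 4.78-fold and 4.26-fold without replicates 1 and 2. The call was lost with 32 intensity units added before log2 (limma adjusted p = 0.0672), with trend and robust eBayes (0.0569) and with replicate number as a block (0.073). It was also lost without adenocarcinoma replicate 3 (0.0728) or 4 (0.0733), and without normal replicate 1 (0.0696), 2 (0.067), 3 (0.0906) or 4 (0.0853). The adjusted p ranged from 0.0105 to 0.0906 in all alternatives. The SD of Il6 among the adenocarcinomas was 2.43, against a median of 0.189 over all genes, and only 6 of 21626 genes, Il6 among them, had an SD as large.

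Il11 and Osm showed the same arrays high. Interleukin-11, the ligand that drives gastric tumours in the gp130 mutant mice named above, was at 7.6, 7.6, 9.6 and 9.9 in adenocarcinoma replicates 1 to 4 and at 7.8, 7.6, 7.7 and 7.5 in normal mucosa. Replicates 3 and 4 were above every normal sample and replicates 1 and 2 were within the normal range. The difference of the group means was 1.03 ± 0.51 (95% interval -0.13 to 2.18, limma adjusted p = 0.131) and did not pass the test. Oncostatin M, encoded by Osm and made mainly by leukocytes, was at 7.1, 7.4, 8.9 and 8.7 in adenocarcinoma and at 7.2, 7.2, 7.2 and 7.0 in normal mucosa. Here too replicates 3 and 4 were high, replicate 1 was within the normal range, and the groups overlapped (0.88 ± 0.38, interval 0.03 to 1.72, limma adjusted p = 0.0877). Both passed without adenocarcinoma replicate 1 (Il11, 1.38, adjusted p = 0.0499; Osm, 1.18, adjusted p = 0.021), and Osm also passed with array weights (0.029). Over all alternatives the adjusted p ranged from 0.0499 to 0.277 for Il11 and from 0.021 to 0.182 for Osm. An SD as large as theirs in adenocarcinoma (1.25 and 0.907) was found in 0.846% and 2.19% of all genes.

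Lif moved more evenly. Leukaemia inhibitory factor was at 8.1, 8.3, 9.5 and 8.4 in adenocarcinoma and at 7.5, 7.2, 7.6 and 7.6 in normal mucosa. Every adenocarcinoma was above every normal sample, and replicate 3 was the highest. Lif rose by 1.10 ± 0.28 on the log2 scale, or 2.14-fold (interval 0.48 to 1.72, limma adjusted p = 0.0136). In the deposited table, whose build no source used here gives, Lif (probe set 10373918, chromosome 11 from 4157571 to 4172517, plus strand) lies beside Osm (10373912, 4136423 to 4141029, plus strand).

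The receptor chains went in both directions. Osmr, which pairs with gp130 to form a receptor for oncostatin M, had the largest difference among the genes of the 10 that were above background in both groups. It was at 10.8, 10.8, 11.4 and 10.6 in adenocarcinoma and at 8.0, 7.2, 7.0 and 7.3 in normal mucosa, so that the lowest adenocarcinoma lay well above the highest normal sample. Osmr rose by 3.53 ± 0.24, or 11.5-fold (95% interval 2.99 to 4.06, limma adjusted p = 1.12e-05). In contrast to its ligand, Osmr was high in all 4 adenocarcinomas. The probe set (10427471) lies on chromosome 15 from 6763590 to 6824969 on the minus strand.

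The chains that bind interleukin-6 and interleukin-11 fell. Il6ra, the interleukin-6 receptor alpha chain, was at 9.3, 9.3, 9.5 and 9.0 in adenocarcinoma and at 10.1, 9.9, 9.9 and 10 in normal mucosa. All 4 adenocarcinomas were below all normal samples, also those with high Il6. The fall was -0.70 ± 0.12, or 1.62-fold lower (95% interval -0.96 to -0.44, limma adjusted p = 0.0018). Il11ra1, the interleukin-11 receptor alpha chain, was at 9.0, 9.3, 9.4 and 9.0 in adenocarcinoma and at 10.3, 10.6, 10.6 and 10.5 in normal mucosa. It fell by 1.33 ± 0.12 on the log2 scale, 2.51-fold lower (interval -1.60 to -1.05, limma adjusted p = 7.34e-05), again with no overlap. Its probe set is not marked as unique in the deposited table. The 2 probe sets of the near-identical Il11ra2, also on chromosome 4, gave values within 0.2 of it on every array, so the signal of Il11ra1 and Il11ra2 cannot be told apart.

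Il6st, the shared gp130 chain, was at 11.1, 11.4, 11.6 and 10.8 in adenocarcinoma and at 11.3, 11.3, 11.4 and 11.2 in normal mucosa. The groups overlapped, with adenocarcinoma values on both sides of the normal ones. Its log2 difference of -0.08 ± 0.16 had a 95% interval from -0.44 to 0.29 (limma adjusted p = 0.721), and the sign turned after centring on receptor genes (0.075) and without adenocarcinoma replicate 4 (0.0667).

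**Figure D2:**
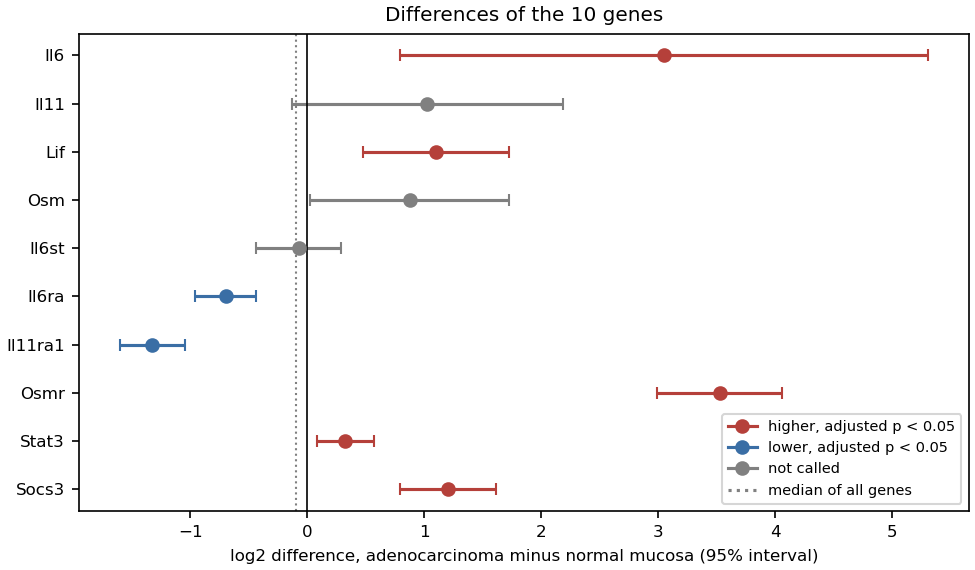
Log2 difference of each gene, adenocarcinoma minus normal mucosa (x axis), with 95% intervals from limma; red genes rose, blue genes fell and grey genes did not pass an adjusted p of 0.05, and the dotted line is the median of all genes (-0.10). Osmr (3.53) had a narrow interval above 2.99, while that of Il6 (3.05) ran from 0.79 to 5.31.

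Stat3 and Socs3 rose by unequal amounts. Stat3 was at 11.5, 11.5, 11.9 and 11.6 in adenocarcinoma and at 11.3, 11.3, 11.2 and 11.4 in normal mucosa. The groups were apart by only 0.1 at their nearest values, which is the step to which the authors rounded. The difference of 0.325 ± 0.11, or 1.25-fold, passed the test (95% interval 0.08 to 0.57, limma adjusted p = 0.0401). It did not pass after median centring of the arrays (0.186), after cyclic loess (0.0704), with array weights (0.058) or with replicate number as a block (0.0783). Nor did it pass without any 1 of adenocarcinoma replicates 3 and 4 and the 4 normal replicates (0.0576 to 0.103). The adjusted p ranged from 0.0174 to 0.186 in all alternatives. These values are of the RNA, and the phosphorylation through which STAT3 acts was not measured.

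Socs3 was at 10.5, 10.5, 11.3 and 10.8 in adenocarcinoma and at 9.6, 9.4, 9.5 and 9.8 in normal mucosa. All 4 adenocarcinomas lay above all normal samples. In replicates 1 and 2 Il6 was at or below background and Il11 within its normal range, while Lif was above every normal sample. Relations between Socs3 and the ligands were not tested. Socs3 rose by 1.2 ± 0.18, or 2.30-fold (95% interval 0.79 to 1.61, limma adjusted p = 0.00115). A second Socs3 probe set (10383010), placed on the opposite strand of chromosome 11, had smaller differences, with values of 8.1 to 8.4 in adenocarcinoma against 7.9 to 8.1 in normal mucosa (0.25 ± 0.09, adjusted p = 0.057). The mean of both probe sets still rose (0.73, adjusted p = 0.00255). The brighter one (10393449) is on the minus strand from 117827393 to 117830500.

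Adenocarcinoma replicate 3 had the highest value of the 4 adenocarcinomas for 9 of the 10 genes, all but Il11, which was highest in replicate 4. Over all genes, replicate 3 alone was highest for 19.0%. Replicate 3 also had the highest summed level (the sum of unlogged values of the markers) for neutrophils, fibroblasts, endothelium, smooth muscle and mast cells, but not for macrophages, T cells, B cells, gland and pit cells or pan-epithelial genes. Their part in the values of the 10 genes was not tested.

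Marker genes of some other cell types moved with the groups, while of all genes 18.2% rose and 23.6% fell. Their part in the results above was not tested. All 10 macrophage markers rose, with a summed level of 13065 to 18882 in adenocarcinoma against 1983 to 2196 in normal mucosa. All 10 fibroblast markers rose (19323 to 39156 against 2801 to 3250), as did all 8 endothelial markers (7544 to 14597 against 1504 to 1616), and among 8 smooth muscle markers 6 rose (6285 to 31471 against 2068 to 2319). Of 10 neutrophil markers, 6 rose and 2 fell (2712 to 5585 against 1313 to 1610), and of these Retnlg was at or below background in all normal samples, as were the fibroblast genes Lum and Fap. Of 9 T cell markers none rose and 1 fell (1428 to 2106 against 1683 to 1835), and of 6 B cell markers 1 rose (862 to 3161 against 863 to 1068), with Ms4a1 at background in all normal samples. Of 6 mast cell markers none rose and 1 fell, Ms4a2, which was at or below background on all 8 arrays (520 to 1729 against 788 to 1431).

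Within the adenocarcinomas, the macrophage sum was 13065, 18882, 15883 and 18862 in replicates 1 to 4. It was highest in replicates 2 and 4. The neutrophil sum was 2712, 3435, 5585 and 4419, though single neutrophil markers did not all follow this order. The fibroblast sum was 19323, 24357, 39156 and 27535, and the endothelial sum 7544, 8475, 14597 and 9906. Each of these sums was highest in replicate 3, followed by replicate 4. Single fibroblast and endothelial markers did not all follow this order either, and the brightest markers weigh most in such sums. The smooth muscle sum was 6285, 25693, 31471 and 10675, highest in replicate 3, followed by replicate 2. Relations between these sums and the ligands were not tested.

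The genes most like Il6, Il11 and Osm over the 8 arrays were found by the Euclidean distance between log2 values, each gene centred on its own mean. Nearest to Il6 were the chemokine genes Ccl3 (distance 0.959) and Cxcl2 (1.24), followed by the acute-phase gene Saa3 (1.90). Ccl3 was at 8.3, 8.5, 12.0 and 12.3 in adenocarcinoma and 6.8 to 7.2 in normal mucosa, and Cxcl2 at 7.9, 7.5, 11.9 and 11.7 against 6.3 to 6.9. In both, as in Il6, replicates 3 and 4 stood high. In Ccl3 and Cxcl2 replicates 1 and 2 lay between them and the normal samples. For Il6 these replicates and the normal samples were at or below background, so their order is uncertain. Nearest to Il11 were the chemokine gene Cxcl3 (0.674; 6.9, 7.0, 9.6 and 9.3 against 7.0 to 7.2), the inducible nitric oxide synthase gene Nos2 (0.677; 8.3, 7.7, 10.1 and 9.8 against 7.8 to 8.3) and Cidea, a lipid droplet gene (0.748). In replicates 1 and 2 these 3 genes were no higher than the highest normal sample. Nearest to Osm were the carboxypeptidase gene Cpa6 (0.346), the phosphodiesterase gene Pde2a (0.543) and again Cidea (0.591).

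The other genes had different neighbours. Osmr was nearest to calponin 2 (Cnn2, 0.529), the matrix protein gene Spon1 (0.67) and the IGF-binding protein gene Igfbp4 (0.771), each of which was high in all 4 adenocarcinomas. Socs3 was nearest to Adamtsl4 (0.245), Cxx1a (0.298) and the growth factor gene Tgfb2 (0.339). Stat3 was nearest to Nr1h2 (0.122), Pcnx (0.137) and Cyth2 (0.17). The distance is not scaled for the size of a change, so genes with changes of unlike size cannot be near each other.

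**Figure D3:**
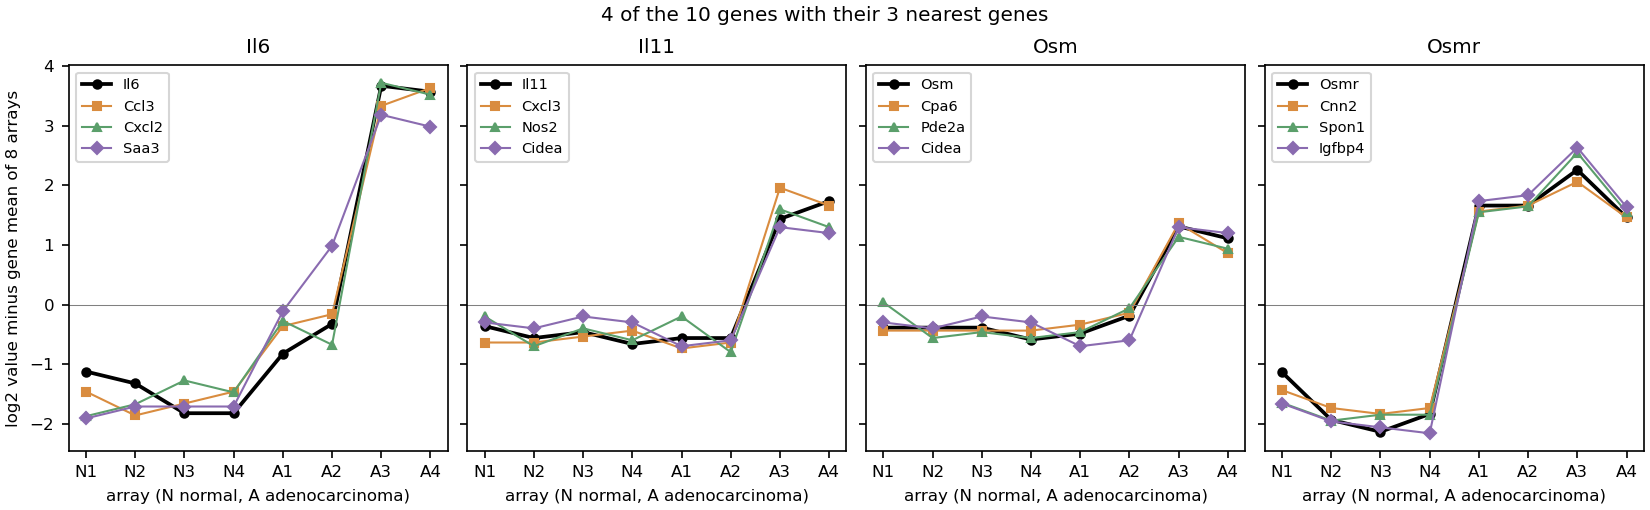
Log2 value minus each gene's mean over the 8 arrays (y axis) for Il6, Il11, Osm and Osmr (black) and the 3 genes nearest to each (colours), across 4 normal (N) and 4 adenocarcinoma (A) arrays; lines only join the points of a gene. Il6, Il11, Osm and their neighbours are highest in replicates 3 and 4, with Ccl3, Cxcl2 and Saa3 above normal in replicates 1 and 2 as well, while Osmr and its neighbours are high in all 4 adenocarcinomas.

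Other genes of the pathway were taken from 6 lists of textbook members, of which 66 of 67 genes were measured. Over these lists 27 genes rose and 11 fell, and of the 27 rises 19 were in the list of STAT3-responsive genes. In the other 5 lists 8 of 36 genes rose and 9 fell, against 18.2% and 23.6% of all genes. Of 7 other cytokines of the family, 2 rose and 3 fell (list median -0.30). Clcf1, a cytokine of the family, was at 9.7, 8.9, 9.0 and 8.8 in adenocarcinoma and at 8.2 to 8.3 in normal mucosa. It rose by 0.825 ± 0.18 (limma adjusted p = 0.00751), and replicate 1 was the highest adenocarcinoma, unlike for Il6 and Il11. Il31 (-0.325 ± 0.09, chosen after its values were seen), Il27 (-0.45 ± 0.08) and Ctf1 (-0.45 ± 0.16, adjusted p = 0.0485) fell, and the call of Ctf1 was lost in 10 of 18 alternatives.

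Of 5 other receptor chains, none rose and 3 fell (list median -0.55), where 18.2% of all genes rose and 23.6% fell. The leukaemia inhibitory factor receptor Lifr was at 9.6, 10.1, 9.9 and 9.7 in adenocarcinoma and at 11, 11.4, 11.1 and 11 in normal mucosa. It fell by 1.30 ± 0.14 on the log2 scale (limma adjusted p = 0.000153) with no overlap, while its ligand Lif rose. Il11ra2 (-1.2 ± 0.10), whose signal is shared with Il11ra1, and Il31ra (-0.55 ± 0.12), at or below background in 3 adenocarcinomas, also fell. Cntfr (0.05 ± 0.14, adjusted p = 0.794) and Il27ra (0.175 ± 0.12, adjusted p = 0.25) did not pass the test.

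Of 10 Janus kinases and other STATs, 2 rose and 2 fell (list median -0.13), near the shares of all genes (18.2% and 23.6%). Jak1 and Jak2, kinases bound to gp130 and chosen after their values were seen, differed by 0.225 ± 0.15 and 0.175 ± 0.12, which did not pass the test (limma adjusted p = 0.251 and 0.242). Tyk2, another Janus kinase chosen in the same way, had a difference of the opposite sign (-0.35 ± 0.15, adjusted p = 0.083), which did not pass either. Jak3, a kinase of lymphocyte cytokine receptors, rose by 0.675 ± 0.19 (adjusted p = 0.0214), though not by the mean of its probe sets (0.15, adjusted p = 0.29) or without normal replicate 4 (0.0642; range 0.00364 to 0.29). Stat4 rose by 1.10 ± 0.27 (adjusted p = 0.0115), with 2 of 4 normal samples at or below background. Stat5a (-0.70 ± 0.08) and Stat2 (-0.625 ± 0.10) fell, each without overlap, in contrast to Stat3.

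Of 8 negative regulators, 2 rose and 1 fell (list median -0.09), again near the 18.2% and 23.6% of all genes. The tyrosine phosphatase genes Ptpn2 (0.925 ± 0.14, limma adjusted p = 0.00122) and Ptpn1 (0.65 ± 0.13, adjusted p = 0.00467) rose. By the mean of its 2 probe sets Ptpn2 rose much less (0.2875, limma adjusted p = 0.0245), so its size depends on the probe set. Cish, a relative of Socs3 that is known as a target of STAT5, fell by 1.15 ± 0.11 (adjusted p = 9.08e-05), with 8.5 to 8.9 in adenocarcinoma against 9.8 to 10 in normal mucosa. Socs1 (-0.10 ± 0.11), chosen after its values were seen, did not pass the test (adjusted p = 0.457). The Socs2 probe set counted here is not marked unique, and no value is given for it. Of 6 genes of the SHP2 and adaptor branch, which links gp130 to MAP kinase signalling, 2 rose and none fell (list median 0.19), beside 18.2% and 23.6% of all genes. They were the docking protein gene Gab2 (1.83 ± 0.25, adjusted p = 0.000716) and the adaptor gene Shc1 (0.45 ± 0.09, adjusted p = 0.00453).

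Of 30 genes known to respond to STAT3, 19 rose and 2 fell. The list median was 0.76, against -0.10 for all genes, and 18.2% of all genes rose. The list was put together with earlier results of these data known, so its count is not independent evidence of a direction. Its leading genes were high in all 4 adenocarcinomas. Reg3g, an antimicrobial lectin, was at 12.9, 12.5, 13.1 and 13.6 against 6.0 to 7.8 in normal mucosa. Reg3b, its relative, was at 12.4, 12.4, 12.8 and 13.5 against 6.6 to 7.7, and the protease inhibitor Serpina3n at 11.9, 12.6, 13.6 and 12.0 against 7.3 to 7.4. In each, adenocarcinoma replicates 1 and 2 too were far above normal, unlike in Il6. They rose by 6.05 ± 0.37, 5.80 ± 0.30 and 5.18 ± 0.32, with limma adjusted p of 7.64e-06 or less.

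A pair of acute-phase genes, picked for their values, lay nearer the Il6 pattern. Other acute-phase genes of the list, such as Lbp and Fgb, did not follow it. Saa3 was at 8.5, 9.6, 11.8 and 11.6 in adenocarcinoma and at 6.7 to 6.9 in normal mucosa (3.53 ± 0.65, limma adjusted p = 0.00332). Lrg1, chosen after its values were seen, was at 10.2, 10.8, 12.3 and 12.2 against 7.6 to 7.8 (3.70 ± 0.43, adjusted p = 0.000262). Both were above normal in every adenocarcinoma and highest in replicates 3 and 4. The larger of the 2 falls was in Hamp, the hepcidin gene that STAT3 induces in liver. Hamp was at 4.6 to 5.3 in adenocarcinoma, at or below background in all 4, and at 6.8 to 7.1 in normal mucosa, at least 1.74-fold lower (adjusted p = 2.06e-05). Saa1 was at or below background on all 8 arrays, and no direction was drawn from its call. Fos (-0.375 ± 0.27, adjusted p = 0.274), Junb (0.175 ± 0.16, adjusted p = 0.404) and Mcl1 (0.25 ± 0.22, adjusted p = 0.376), immediate targets in many cells and chosen after their values were seen, did not pass the test. They do not stand for the list. Myc (0.925 ± 0.20, adjusted p = 0.00792), Pim1 (0.725 ± 0.17, 0.0114), Bcl3 (0.80 ± 0.14, 0.00257), Cebpb (0.575 ± 0.17, 0.0267) and Cebpd (0.825 ± 0.28, 0.04), also chosen after their values were seen, rose.

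**Figure D4:**
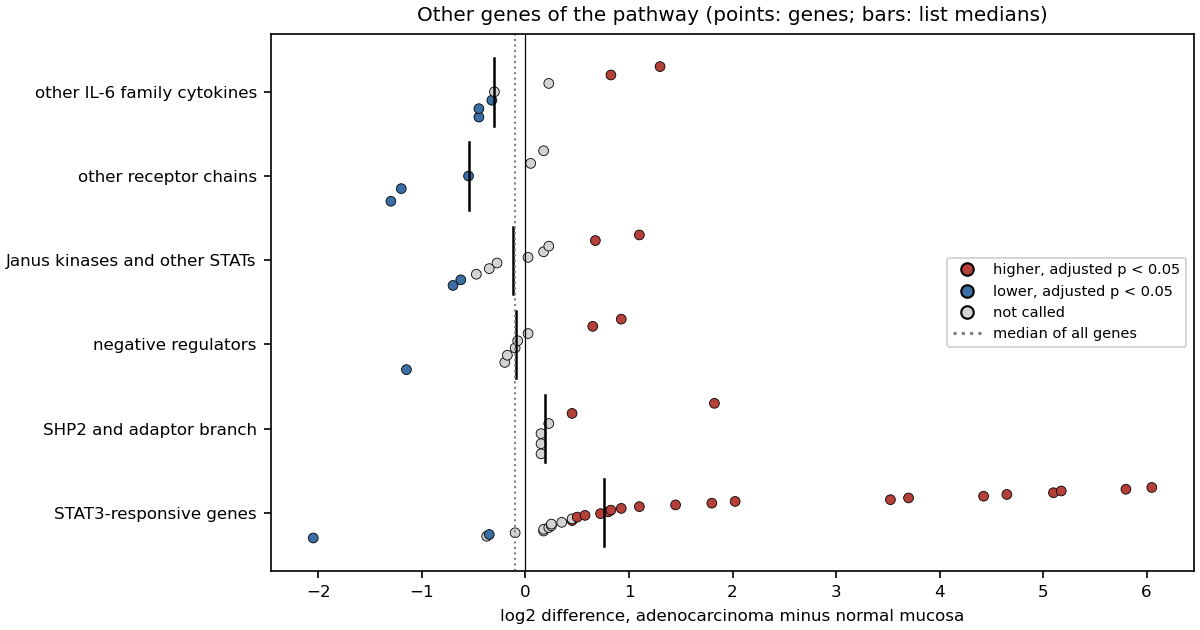
Log2 difference, adenocarcinoma minus normal mucosa (x axis), of 66 other pathway genes in 6 lists (rows), with each gene a point (red rose, blue fell, grey not called) and each list's median a bar; the dotted line is the median of all genes (-0.10). Of the STAT3-responsive genes, a list put together with earlier results known, 19 of 30 rose, beside 18.2% of all genes.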

How the data were processed

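Total RNA of 8 mouse stomach samples was measured on Affymetrix arrays, per the labels' protocols. Deposited were log2 values that the authors made with RMA (background correction, normalisation between arrays and probe summary), per the submitters' processing notes. No source used here gives the settings or the build of the table's positions. Values were rounded to 1 decimal (284448 of 284448; tolerance 1e-06), and those of the annotated table, which was used, matched the value table's with 0 differences. Of 35556 probe sets, 28350 were gene probe sets and 24975 carried 1 symbol, for 21626 genes.

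Groups came from the sample titles. Adenocarcinoma was compared with normal mucosa, 4 arrays each, in limma 3.58.1 under R 4.3.3 (a two-sided moderated test from lmFit and eBayes), with Benjamini-Hochberg adjustment over all genes. Values after ± are SEs of differences or SDs of levels, as stated at each first use, and intervals are 95%. The number of arrays limits the precision. A gene was taken as at background where it was at or below the median of 45 background probe sets on its array. The code was tested on simulated data. Batches were not tested, since slides and scan dates were not used here.

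The members and lists were chosen with earlier results of these data known. Named were the members, of each list the 3 largest rises and 2 largest falls called (all genes of lists with 5 or fewer), and the 3 nearest genes of 6 members. A gene chosen by this rule is not reported here. Adgre1 was matched through its older symbol, and Cntf had no probe set under its symbol. Motifs were searched in RefSeq promoters, with 9 of 10 members matched by symbol. Alternatives were median centring, cyclic loess, 32 intensity units added, genes without the dimmest 30%, averaging the probe sets of each gene, trend and robust eBayes, array weights (statmod 1.5.0), a replicate block, each array left out, and an adjusted p under 0.01. Centring on 1338 olfactory and vomeronasal receptor genes, unique probe sets and the second Socs3 probe set were added after seeing the data. Figures were drawn with matplotlib 3.10.9.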

Additional observations from a re-analysis of the deposited data

Results flagged for a closer look

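Among 66 groups of 4 values (the 10 genes and the pathway genes chosen by the naming rule), 5 had 1 array far from the other 3, by the gap to the nearest array over the group's range (Dixon's test at 95%). Chance flags about 5% of such groups, and rounding to 1 decimal makes ties that raise this share. Gab2 was at 11.3 in adenocarcinoma replicate 3 and at 10.1 to 10.2 in the other adenocarcinomas. In normal mucosa Osm was at 7.0 in replicate 4 (7.2 in the others), Jak3 at 8.9 in replicate 4 (9.2), Clcf1 at 8.2 in replicate 1 (8.3) and Shc1 at 10.1 in replicate 3 (10.2). The gaps of Osm, Clcf1 and Shc1 are 1 or 2 rounding steps.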

How the results depend on the processing

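Osmr, Socs3, Lif, Il6ra and Il11ra1 kept their direction and their call at an adjusted p under 0.05 in every alternative that gave a value, except the second Socs3 probe set (0.25, adjusted p = 0.057). Il11ra1 had no value with unique probe sets and Il6 none without the dimmest 30% of genes. The Il6 difference (3.05) was not called with 32 units added (2.27), with trend and robust (3.05) or with the replicate block (3.05, adjusted p = 0.073), and lay between 2.33 and 3.83 without single arrays. Stat3 (0.325) was not called with median-centred arrays (0.1875), cyclic loess (0.305), with array weights (0.268) or with the replicate block (0.325, adjusted p = 0.0783), and lay between 0.233 and 0.367 without single arrays. Il11 and Osm were called in 1 and 2 alternatives, between 0.617 and 1.38 and between 0.583 and 1.18 without single arrays, and Osm at 0.908 with array weights. Il6st turned to 0.075 after centring on receptor genes and ranged from -0.20 to 0.0667 without single arrays. Cntfr turned to -0.0875 after median centring, and to -0.0667 and -0.0167 without adenocarcinoma replicate 3 and normal replicate 4, in a range up to 0.1333 without single arrays. Of the 10 genes, 3 rose with the replicate block and 2 at an adjusted p under 0.01, and 3 to 7 rose and 2 fell without single arrays. With unique probe sets 1 fell. The block changed no other call of the 10 genes. Same-numbered samples did not deviate together in every pair (correlations of -0.175, 0.0948, 0.158 and 0.0376). Such weak correlations cannot settle whether same-numbered samples are matched. The causes of these shifts were not tested.

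Over all genes 3942 rose and 5099 fell. The falls numbered 9272 after median centring, 3239 after cyclic loess, 3181 without dim genes and 1700 after centring on receptor genes, and 2975 to 5456 without single arrays. At an adjusted p under 0.01, 2376 rose and 1912 fell. The share of calls that rose was 43.6%, and 24.8%, 54.8% and 73.8% after these 3 scalings, under which all genes had a median change of -0.238, -0.0056 and 0.05 in place of -0.10. Of 23 other pathway genes chosen by the naming rule, 19 kept direction and call throughout, Cntfr turned its sign as above, and Ctf1, Jak3 and Saa1 lost theirs in some alternatives. Signals near background limit Il6, Hamp, Saa1 and Il31ra.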
